A study of Mus musculus with 9 samples.

Results

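Sphk1 and 8 other genes of sphingosine 1-phosphate metabolism and signalling were examined in the lateral nasal gland of the mouse, which secretes fluid and odorant-binding proteins into the nose. The members were taken by gene symbol: every probe set of the array whose single annotated symbol was Sphk1, Sphk2, Sgpl1, Sgpp1, S1pr1, S1pr2, Asah1, Sptlc1 or Sptlc2. This gave 16 of 22626 probe sets, for 8 of the 9 genes among 12393 genes with a probe set of their own. S1pr2 was not analysed here because no probe set carried its symbol, alone or shared with another gene. Sphk1 was chosen by its measured signal, which had been called higher in mice lacking Cyp2g1 than in both control strains, so its levels are given as a description without a test; the other genes entered as its pathway partners. RNA came from 3 groups of male mice aged 2 to 3 months, each array holding glands pooled from 10 mice. The groups were Cyp2g1-null mice, which lack a cytochrome P450 of the nasal mucosa and are on a mixed 129/Sv x C57BL/6 background (3 arrays), wild-type C57BL/6 mice, labelled B6 (4 arrays), and wild-type 129/Sv mice (2 arrays). Both strains served as controls because of that mixed background. Each pool counted as 1 replicate, and nothing in the labels says whether the pools of a group were dissected or hybridised separately, so the p-values measure the spread between these pools, which may be technical.

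Sphingosine 1-phosphate is a lipid that acts inside the cell and, once exported, on G protein-coupled receptors. Serine palmitoyltransferase, made of the subunits encoded by Sptlc1 and Sptlc2, starts the synthesis of ceramide, ceramidases such as the product of Asah1 release sphingosine from it, and the sphingosine kinases Sphk1 and Sphk2 phosphorylate sphingosine. The phosphate is removed by phosphatases such as the product of Sgpp1, or the molecule is cleaved for good by the lyase Sgpl1. Among its receptors, S1pr1 is known from blood vessel endothelium and lymphocyte traffic.

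All values are MAS5 signals, a linear measure of how brightly a probe set hybridised, scaled by the authors to a common level. Fold changes and standard errors are from log2(signal + 16), which understates the change of dim probe sets. Of the 16 member probe sets, 14 lay above the median of their array on at least 2 arrays and entered the fit of 12575 probe sets; the other 2, Sphk1 1420566_at and Sptlc1 1422691_at, lay below the median on all 9 arrays. Cyp2g1, the targeted gene, had signals of 55.7, 140.6 and 201.1 on null arrays, against 5916.8, 748.2, 2006.9 and 2799.4 on B6 and 207.5 and 981.2 on 129/Sv arrays. Cyp2g1 passed the test against B6 (log2 fold change -4.07, limma adjusted p = 0.00268) and missed it against 129/Sv (-1.81, adjusted p = 0.325); the labels do not say whether this probe set lies in the deleted part. Obp1a, an odorant-binding protein of this gland, was bright in every pool, between 112206 and 140712 on null, 134209 and 150146 on B6 and 120391 and 138653 on 129/Sv arrays. Other secretory markers of the gland varied between or within groups. Car6, a secreted carbonic anhydrase, had 64428.1, 29312.4 and 70057.5 on null and 10385.4 and 66481.3 on 129/Sv arrays, which overlapped. On B6 arrays it had 387.5, 593.7, 8017.5 and 7400.6. Scgb1b27, a secretoglobin, averaged 108234 in null, 76801 in B6 and 17042 in 129/Sv glands. B6 pools 1 and 2 stood apart from 3 and 4 in Car6 and in glandular kallikrein Klk1. On Klk1 probe set 1415837_at they had 40392.6 and 40901.4 against 56089.8 and 59080.5. Values without that pair are therefore given for Sphk1, for Plpp1 between the strains and for the counts of all probe sets called in the null comparisons.

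Sphk1 (gene ID 20698, chromosome 11) encodes the sphingosine kinase that is best known as inducible by growth factors and cytokines. Its brighter probe set, 1451596_a_at, gave 2230.1, 1844.2 and 1397 on null arrays, 972.1, 719.3, 808 and 393 on B6 arrays and 338.6 and 310.9 on 129/Sv arrays. No null array overlapped an array of either strain, and all 4 B6 arrays lay above both 129/Sv arrays. Arrays of the 2 groups did not overlap for 13.5% of tested probe sets in null against B6, 31.5% in null against 129/Sv and 25.1% in B6 against 129/Sv, and 1.11% and 1.41% were called higher in null than in B6 and 129/Sv glands; nothing is read from these shares, since the null contrasts chose Sphk1. Sphk1 averaged 1824 ± 417 in the 3 null, 723 ± 244 in the 4 B6 and 325 ± 19.6 in the 2 129/Sv pools (mean ± SD). In the fit this was 2.57-fold higher in null than in B6 glands (log2 fold change 1.36, SE 0.268, 95% interval 0.79 to 1.94). Against 129/Sv it was 5.31-fold higher (log2 fold change 2.41, SE 0.32, 95% interval 1.72 to 3.10). B6 glands stood 2.07-fold above 129/Sv glands (log2 fold change 1.05, SE 0.303, 95% interval 0.39 to 1.70). The null comparisons share the null arrays, so the 2 folds are not independent of each other. Their SEs and intervals describe the spread between pools and test nothing, because the same comparisons chose Sphk1. Without B6 pools 1 and 2 the log2 fold changes were 1.64 for null against B6 and 0.77 for B6 against 129/Sv.

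The second Sphk1 probe set, 1420566_at, placed the groups differently. It gave 408.6, 489.5 and 223.5 on null arrays, 291.7, 430, 174 and 336.2 on B6 arrays and 19.1 and 44.3 on 129/Sv arrays. Null and B6 arrays overlapped, and both lay above 129/Sv. Without the signal filter its log2 fold change was 0.26 for null against B6 (SE 0.479, 95% interval -0.76 to 1.29). No fold is given against its 129/Sv signals, which at 19.1 and 44.3 are not far above the constant of 16 added before taking logs. For null against B6 the 95% intervals of the 2 probe sets overlap, and the difference between them was not tested. The 129/Sv signals were the lowest on both probe sets, while a null level above B6 rests on 1451596_a_at. Which transcripts each probe set detects, and whether strain variants lie under its probes, was not tested. Levels of different probe sets are not compared here, since each has its own hybridisation efficiency.

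**Figure D1:**
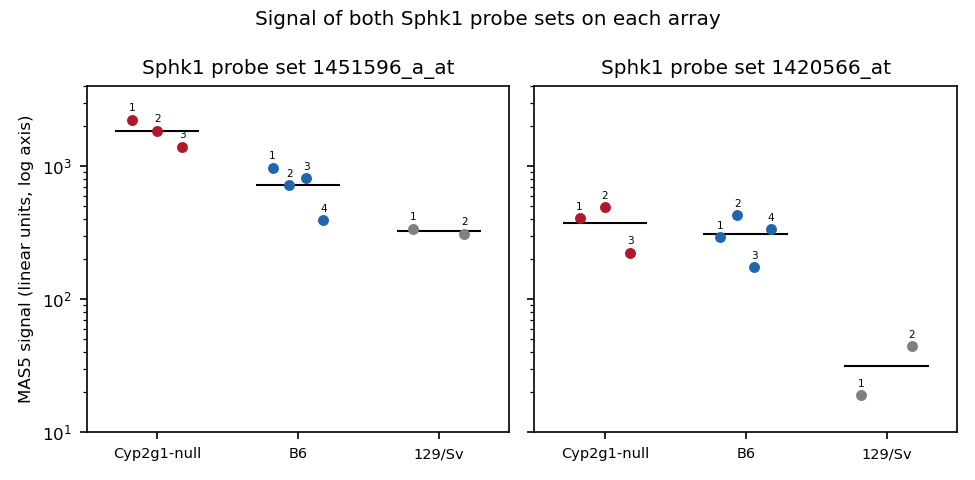
MAS5 signal (log axis) of the 2 Sphk1 probe sets on the 3 Cyp2g1-null, 4 B6 and 2 129/Sv arrays; points are arrays labelled by replicate number and bars are group means. On 1451596_a_at the null arrays (1397 to 2230.1) lie above every B6 array (393 to 972.1), whereas on 1420566_at null and B6 arrays overlap and 129/Sv lies at 19.1 and 44.3.

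RefSeq (GRCm38.p6, the C57BL/6J genome) gives Sphk1 5 start windows, each running from 250 bases before a transcript start to 50 after it. Some of these windows overlap and share bases. Of the 5, 1 holds the TATA letters TATAAA, 2 hold the AP-1 letters TGANTCA (bound by Fos and Jun proteins) and 2 hold the E-box CACGTG; none holds the cyclic AMP element TGACGTCA or the GC box GGGCGG on either strand. The 2 AP-1 matches are 1 and the same place in overlapping windows, and so are the 2 E-box matches. Among all 32851 windows of the table, 13.6% hold TATAAA, 7.81% TGANTCA, 7.15% CACGTG, 1.79% TGACGTCA and 35.7% GGGCGG, counted on both strands. The first window and the next one downstream are shown because Sphk1 is the gene the other members were gathered around; capitals mark TATAAA in the first and TGANTCA in the next one, and both are on the plus strand.
Sphk1 window 1, chr11:116530850-116531149: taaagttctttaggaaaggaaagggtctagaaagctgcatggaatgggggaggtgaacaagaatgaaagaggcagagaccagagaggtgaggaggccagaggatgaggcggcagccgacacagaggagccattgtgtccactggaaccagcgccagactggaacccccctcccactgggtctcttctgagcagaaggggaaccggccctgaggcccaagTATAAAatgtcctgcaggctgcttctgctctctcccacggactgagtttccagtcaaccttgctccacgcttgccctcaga
Sphk1 window 2, chr11:116531587-116531886: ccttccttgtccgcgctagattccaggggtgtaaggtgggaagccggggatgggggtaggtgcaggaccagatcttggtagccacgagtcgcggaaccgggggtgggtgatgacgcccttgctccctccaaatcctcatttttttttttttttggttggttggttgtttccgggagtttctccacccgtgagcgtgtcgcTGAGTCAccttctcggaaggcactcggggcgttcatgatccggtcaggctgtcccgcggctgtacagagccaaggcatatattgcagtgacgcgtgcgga
The TATA letters begin 31 bases before the first start, and the AP-1 letters begin 50 bases before the start of window 2. These are matches of letters in the C57BL/6J sequence; no binding was measured, and the 129/Sv sequence was not used here. Windows of Sphk2, Sgpl1, Sptlc1 and Sptlc2 each hold the GC box, 1 of the Sphk2 windows also holds TGACGTCA, the S1pr2 window holds both, and the Sgpp1 window holds none of the 5 motifs. No window was given for S1pr1 or Asah1.

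Sphk2, the second sphingosine kinase, which is found largely in the nucleus and at mitochondria, lies on chromosome 7, as does Cyp2g1. On probe set 1417431_a_at it had 967.4, 1192.9 and 1080.8 in null arrays, 1055.2, 745.5, 929.3 and 941 in B6 arrays and 1119.1 and 810.7 in 129/Sv arrays. All 3 groups overlapped. Relative to B6 its log2 fold change was 0.24 (SE 0.173, 95% interval -0.13 to 0.61, limma adjusted p = 0.57), and relative to 129/Sv it was 0.17 (SE 0.207, 95% interval -0.27 to 0.62, adjusted p = 0.835). On 1426230_at the means were 451 ± 122 in null, 445 ± 94.8 in B6 and 489 ± 145 in 129/Sv glands (SD), with adjusted p-values of 0.995 and 0.949 against B6 and 129/Sv.

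Apart from Sphk1, 0 of 13 tested member probe sets, from 7 genes, passed in any of the 3 comparisons. The background was 2.18% of 12575 probe sets called for null against B6, 2.04% for null against 129/Sv and 5.19% for B6 against 129/Sv (limma with Benjamini-Hochberg adjustment over all probe sets, threshold 0.05). At an unadjusted p under 0.05 there were 2, 1 and 2 of the 13 in these comparisons. No share over all tested probe sets is given at that cut, so nothing is read from these counts. The median log2 fold changes of the 13 were 0.02, 0.15 and -0.02, beside 0.02, 0.00 and -0.01 over all tested probe sets. No 95% interval of the 13 reached beyond -0.76 to 0.96 against B6 or beyond -0.87 to 1.32 against 129/Sv.

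The lyase Sgpl1 (chromosome 10), which degrades sphingosine 1-phosphate irreversibly, had 881.7, 1064.8 and 816.2 on null arrays, 750, 498.9, 693.1 and 573.2 on B6 arrays and 805.1 and 784.3 on 129/Sv arrays (1415892_at). Every null array lay above every array of both strains, a separation shown by 7.51% of tested probe sets against B6 and 16.2% against 129/Sv. Neither difference passed the test, at 0.55 on the log2 scale relative to B6 (SE 0.193, limma adjusted p = 0.194) and 0.20 relative to 129/Sv (SE 0.231, adjusted p = 0.828). The other Sgpl1 probe set, 1415893_at, had means of 764 ± 141 in the 3 null, 720 ± 191 in the 4 B6 and 638 ± 21.5 in the 2 129/Sv pools (mean ± SD), with overlapping null and B6 arrays and a log2 fold change of 0.11 against B6 (SE 0.233).

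Sgpp1 (chromosome 12), an endoplasmic reticulum phosphatase that turns sphingosine 1-phosphate back into sphingosine, had 3 probe sets, none of which passed. On 1420821_at the signals were 1787.8, 1546 and 1650.3 on null arrays, 2127.7, 2211.5, 2331.4 and 2295.9 on B6 arrays and 1756.1 and 2330.1 on 129/Sv arrays. Null arrays lay below all B6 arrays, which 6.01% of tested probe sets did, and they overlapped 129/Sv. The log2 fold change of -0.43 against B6 (SE 0.124) did not pass (limma adjusted p = 0.0981). On 1420822_s_at and 1450015_x_at, whose probe set types can match several transcripts, the values against B6 were -0.04 (SE 0.121) and -0.05 (SE 0.125), and all groups overlapped.

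S1pr1 (chromosome 3), the receptor, was dim: its only probe set, 1423571_at, exceeded the array median on 5 of 9 arrays. It had 460.6, 574.4 and 887.1 on null arrays, 673.2, 806.6, 450.9 and 867.8 on B6 arrays and 331 and 504.2 on 129/Sv arrays, all overlapping. Null glands differed by -0.13 on the log2 scale from B6 (SE 0.291, limma adjusted p = 0.877) and by 0.58 from 129/Sv (SE 0.348, adjusted p = 0.582). For B6 against 129/Sv it was 0.71 (SE 0.33, adjusted p = 0.285). The summed signal of endothelial markers, 14 of 14 genes measured, followed the same order. It was 13089 to 14619 in null, 15214 to 16098 in B6 and 11462 to 11493 in 129/Sv arrays. Single genes did not all follow it: by group means Eng 1417271_a_at did, Plvap was highest in null and Kdr lowest in null glands. Of 14 tested endothelial probe sets, 0 passed in either null comparison. For B6 against 129/Sv 1 (Eng) was higher, beside 2.92% of all tested probe sets. The part of endothelial cells in the S1pr1 values was not tested. In RNA from whole glands, fewer cells of a type and less RNA per cell cannot be told apart.

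Asah1 (chromosome 8), the lysosomal acid ceramidase, had 10170.8, 9852.8 and 9189.6 on null arrays, 12095.2, 9788, 9450.3 and 7480.4 on B6 arrays and 7796 and 6643.2 on 129/Sv arrays. Null arrays lay within the range of B6 and above both 129/Sv arrays, as 16.2% of tested probe sets did against 129/Sv. Null and B6 glands differed by 0.02 on the log2 scale (SE 0.133, 95% interval -0.26 to 0.31), and null and 129/Sv glands by 0.43 (SE 0.159, limma adjusted p = 0.241). For B6 against 129/Sv it was 0.41 (SE 0.15, adjusted p = 0.16), a value that passed without B6 pool 4 (0.53, adjusted p = 0.0297).

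The serine palmitoyltransferase subunits start sphingolipid synthesis. Sptlc1 1422690_at (chromosome 13) had 3108.3, 3138.3 and 3237.1 on null arrays, 2651.3, 3559.3, 2994.1 and 3099.2 on B6 arrays and 3108.5 and 3057.3 on 129/Sv arrays. Its log2 fold change was 0.05 against B6 (SE 0.111, 95% interval -0.19 to 0.29) and 0.04 against 129/Sv (SE 0.133, 95% interval -0.25 to 0.32). The dimmer Sptlc1 probe sets 1436726_s_at and 1436727_x_at gave -0.1 (SE 0.227) and 0.29 (SE 0.281) against B6, and 1422691_at, below the filter, ran from 75 to 314.2 on null, 61.5 to 399 on B6 and 141 to 157 on 129/Sv arrays. Sptlc2 1460243_at (chromosome 12) averaged 1678 ± 149 in the 3 null, 1484 ± 236 in the 4 B6 and 1522 ± 330 in the 2 129/Sv pools (mean ± SD), with log2 differences of 0.19 from B6 (SE 0.158, limma adjusted p = 0.632) and 0.15 from 129/Sv (SE 0.189, adjusted p = 0.841).

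**Figure D2:**
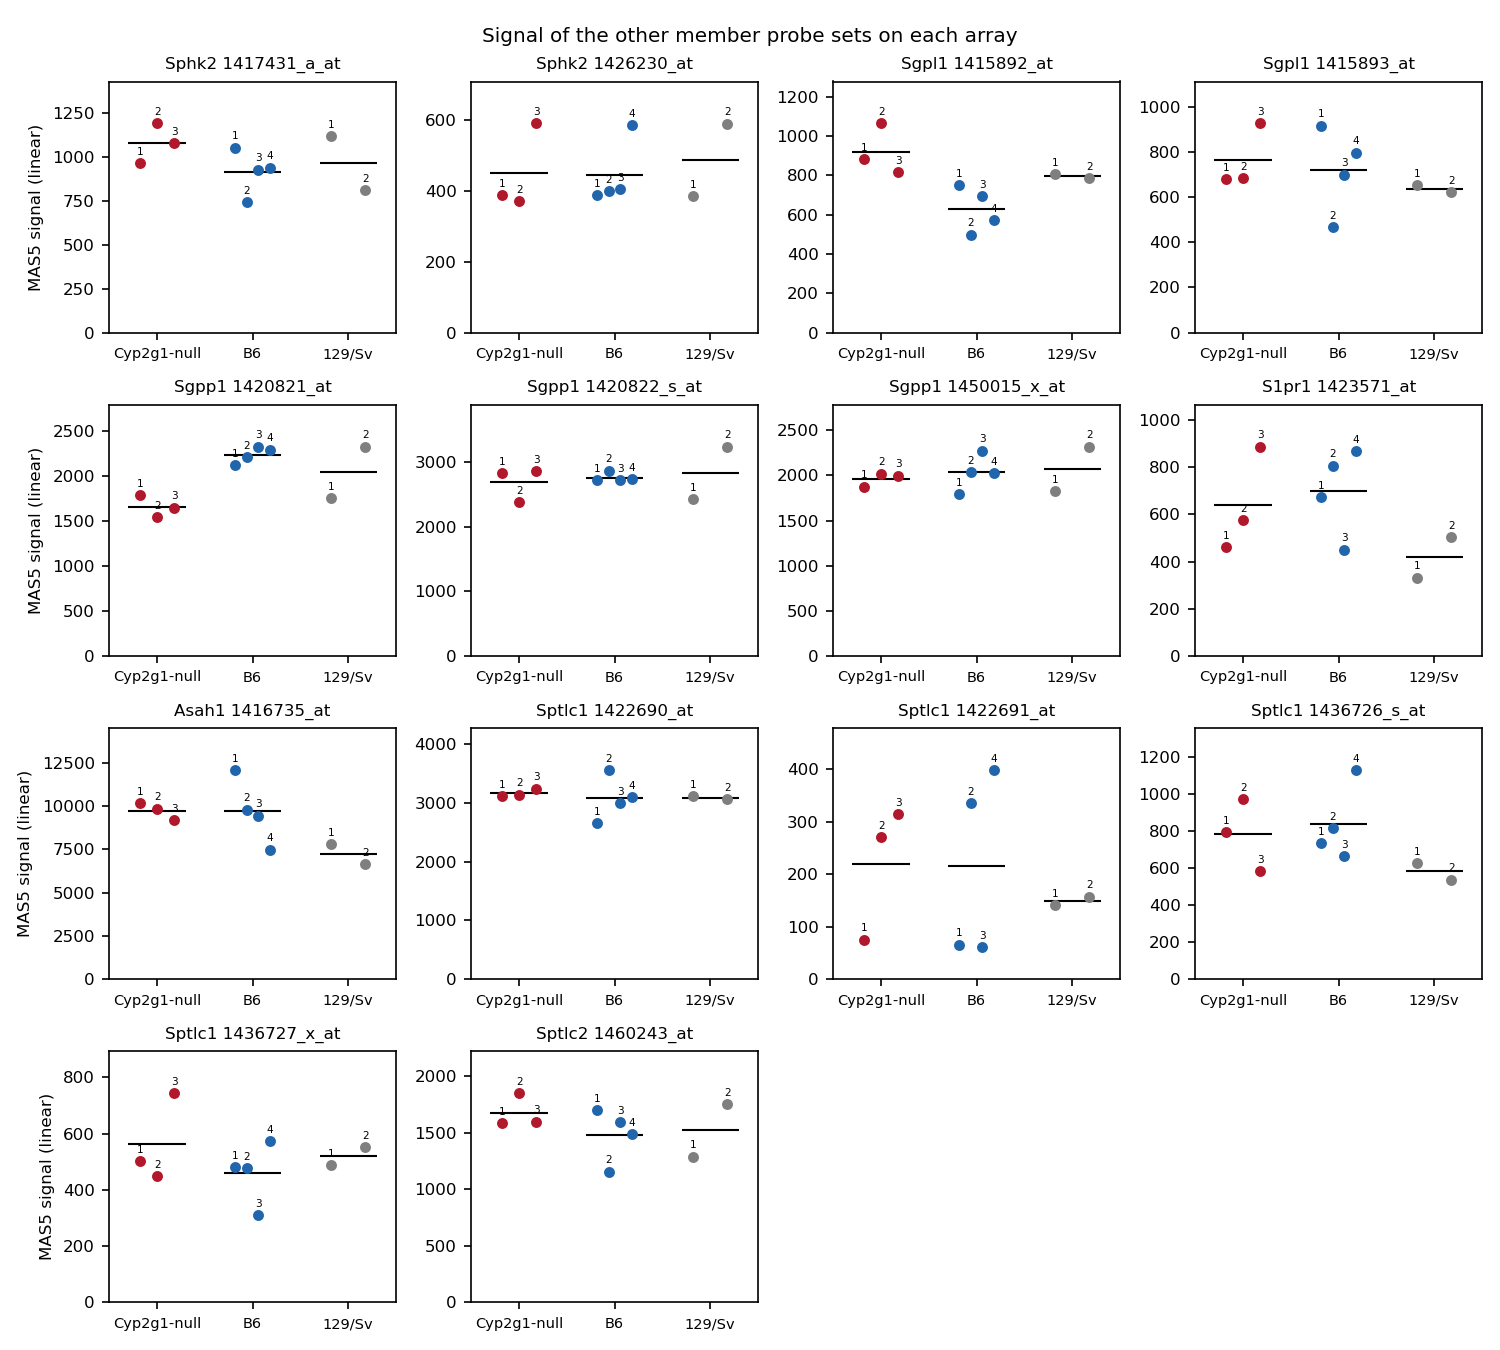
MAS5 signal (linear axis from 0) of the 14 member probe sets other than Sphk1, on 3 Cyp2g1-null, 4 B6 and 2 129/Sv arrays; points are arrays labelled by replicate number and bars are group means. Groups overlap in most panels; Sgpl1 1415892_at (null 816.2 to 1064.8, B6 498.9 to 750) and Sgpp1 1420821_at (null 1546 to 1787.8, B6 2127.7 to 2331.4) separate null from B6 arrays.

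**Figure D3:**
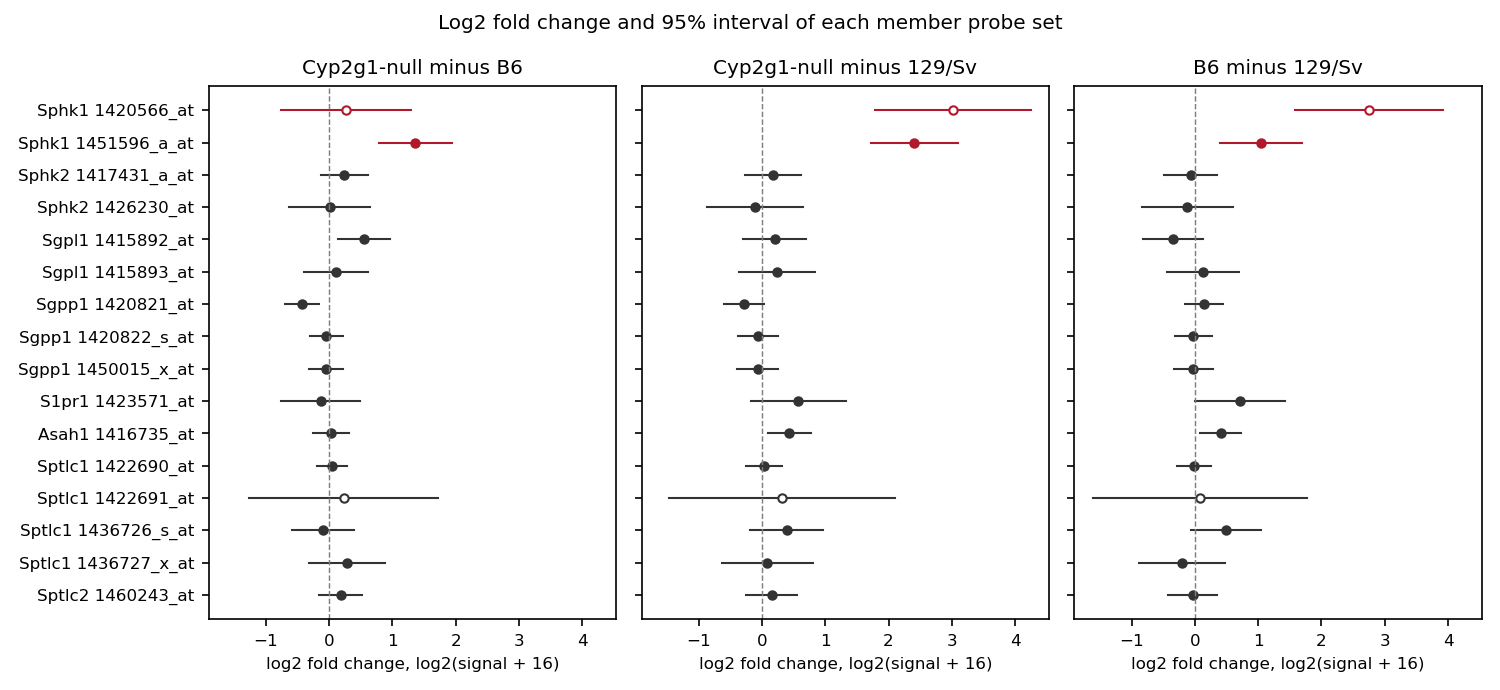
Log2 fold change on the log2(signal + 16) scale (horizontal axis) with its 95% interval for all 16 member probe sets in the 3 comparisons; red marks Sphk1, whose values chose the members, and open points are the 2 probe sets below the signal filter, whose fitted values depend on the added constant. Sphk1 1451596_a_at lies at 1.36, 2.41 and 1.05, and its intervals in the null comparisons are no test, because those comparisons chose it. Most intervals of the other members include 0.

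The rest of the pathway was followed in 4 lists. Of the genes that make ceramide de novo, 5 genes with 6 probe sets were tested and 0 passed limma in any comparison. At an unadjusted p under 0.05 there was 1 for null against B6, 0 for null against 129/Sv and 1 for B6 against 129/Sv. Here too no share over all tested probe sets is given at that cut, so nothing is read from these counts. Degs1, the dihydroceramide desaturase, had log2 fold changes of -0.25 against B6 (limma adjusted p = 0.224) and 0.02 against 129/Sv (0.976) on 1423345_at, and Sptssa, a small activating subunit of serine palmitoyltransferase, 0.08 (0.775) and -0.07 (0.896).

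Among genes that release or modify ceramide, 19 probe sets of 13 genes were tested; 1, Galc, was lower in null than in B6 glands and 1, Smpdl3b, lower in null than in 129/Sv glands, beside 1.07% and 0.628% of all tested probe sets. Between the strains Galc was higher and Smpdl3b lower in B6, beside 2.92% higher and 2.27% lower over all. Smpdl3b, a membrane-anchored relative of acid sphingomyelinase, had 1226.8, 940.3 and 815.5 on null arrays, 979.8, 1106.7, 1307.4 and 1436.4 on B6 arrays and 5535.6 and 7481.8 on 129/Sv arrays. Null and B6 arrays overlapped far below 129/Sv. It fell 6.48-fold in null against 129/Sv (limma adjusted p = 3.43e-06) and was 5.33-fold lower in B6 than in 129/Sv glands (adjusted p = 3.88e-06), with -0.28 on the log2 scale for null against B6 (adjusted p = 0.496).

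Galc, the lysosomal galactosylceramidase, had 271.5, 396.4 and 249.1 on null arrays, 891.4, 950.3, 1233 and 1160.5 on B6 arrays and 416.1 and 150.5 on 129/Sv arrays (1452907_at). Here the null arrays lay with 129/Sv, and the null level was 3.38-fold lower than in B6 (log2 fold change -1.76, SE 0.323, limma adjusted p = 0.00945). The call missed the threshold without null pool 3 (adjusted p = 0.0515), and the log2 value of 1.99 for B6 against 129/Sv (adjusted p = 0.0047) missed it without 129/Sv pool 2 (1.30, adjusted p = 0.076). A second Galc probe set, 1420547_at, named after its values were seen, ran the other way, with 476.1, 443.7 and 596 on null, 97.6, 180, 61.8 and 271.5 on B6 and 585.8 and 552.3 on 129/Sv arrays (1.79 against B6, adjusted p = 0.0792). These 2 Galc probe sets gave opposite directions, and 1449900_at, below the filter, ran from 50.7 to 170.7 on null, 75 to 272.8 on B6 and 95.1 to 140.1 on 129/Sv arrays, all overlapping.

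In the list of genes that handle sphingosine 1-phosphate or receive it, 16 probe sets of 11 genes were tested; 2, both of Plpp1, were lower in null than in B6 glands, beside 1.07% of all tested probe sets that were lower. Plpp1 is a cell-surface phosphatase of lipid phosphates, sphingosine 1-phosphate among them. On 1422619_at it had 6418.5, 6839.4 and 7387.4 on null arrays, 10110.7, 9522.3, 11624.9 and 12621.7 on B6 arrays and 8755 and 7726.9 on 129/Sv arrays. All 3 null signals lay below the 6 signals of the wild types. Such a separation was shown by 6.01% of tested probe sets against B6 and 15.2% against 129/Sv. The level was 1.59-fold lower than in B6 (log2 fold change -0.66, SE 0.108, limma adjusted p = 0.00392), and the value of -0.26 against 129/Sv did not pass (SE 0.129, adjusted p = 0.466). All B6 arrays also lay above both 129/Sv arrays, as 12.2% of tested probe sets did. This strain difference of 0.41 on the log2 scale did not pass limma. It passed in 4 of 21 alternatives, among them without B6 pools 1 and 2 (0.56, adjusted p = 0.0104). The second probe set, 1422620_s_at, fell 1.45-fold against B6 (adjusted p = 0.0281). It overlapped 129/Sv and did not pass against it (-0.26, adjusted p = 0.525). B6 and 129/Sv arrays overlapped on this probe set too, at 0.28 on the log2 scale. Its call against B6 was lost in 8 of 21 alternatives, among them eBayes without trend (adjusted p = 0.119) and those without null pool 1, 2 or 3 (adjusted p = 0.135, 0.0619 and 0.107) or B6 pool 3 or 4 (0.0896 and 0.0805). Another Plpp1 probe set, 1425449_at, lay below the filter, between 183.1 and 252.8 on null, 30.1 and 358.1 on B6 and 63.4 and 114.3 on 129/Sv arrays.

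The other receptors with a probe set lay below the signal filter: S1pr3 ran from 39.4 to 201.1 on null, 33.8 to 201.2 on B6 and 77.4 to 205.2 on 129/Sv arrays, S1pr4 from 195.9 to 357.9 on null, 33.7 to 270.6 on B6 and 182.6 to 186.8 on 129/Sv arrays, and S1pr5 from 27.6 to 127.9 on null, 22.9 to 67.2 on B6 and 38 to 40.3 on 129/Sv arrays. Spns2, the exporter of sphingosine 1-phosphate, had 2804.8, 3512.4 and 3355 on null arrays, 3617.4, 3449.7, 3471.5 and 3734.1 on B6 arrays and 3926.1 and 4367.4 on 129/Sv arrays, with log2 fold changes of -0.15 against B6 (limma adjusted p = 0.549) and -0.37 against 129/Sv (0.21).

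Of genes known to respond to sphingosine 1-phosphate, 7 probe sets of 6 genes were tested. Against B6, 2 were called higher in null glands, beside 1.11% of all tested probe sets, and both belong to Ccn1, a secreted matricellular protein and immediate early gene. Ccn1 had 2860.3, 5702.6 and 2690.8 on null arrays, 1153, 1297.4, 1049.2 and 784.8 on B6 arrays and 1826.4 and 1294.1 on 129/Sv arrays (1416039_x_at). All null arrays lay above both strains, a separation shown by 7.51% of tested probe sets against B6 and 16.2% against 129/Sv. It rose 3.31-fold against B6 (log2 fold change 1.73, SE 0.243, limma adjusted p = 0.00151) and missed the threshold against 129/Sv (1.19, SE 0.29, adjusted p = 0.0528), which it passed in 6 of 21 alternatives, among them array weights (0.0393) and leaving out B6 pool 1 (0.0494) or B6 pool 4 (0.0409). The second probe set, 1438133_a_at, rose 2.56-fold against B6 (adjusted p = 0.0479), a call lost in 15 of 20 alternatives (lowest value 0.91 without null pool 2, adjusted p = 0.263). Ccn2, another matricellular gene, named after its values were seen, had 1655.2, 2007.8 and 2423.3 on null, 1126.9, 1217.8, 1465.5 and 1526.9 on B6 and 1284.6 and 1550.7 on 129/Sv arrays. All its null arrays lay above both strains, beside the same 7.51% and 16.2% (log2 fold change 0.59 against B6, limma adjusted p = 0.0743, and 0.50 against 129/Sv, adjusted p = 0.271). Of the 7 tested probe sets of this list, 4 had a positive log2 fold change against B6 and 7 against 129/Sv. By group means Lats2 1419678_at, Klf2 and Amotl2 were lower in null than in B6 glands, with overlapping arrays.

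**Figure D4:**
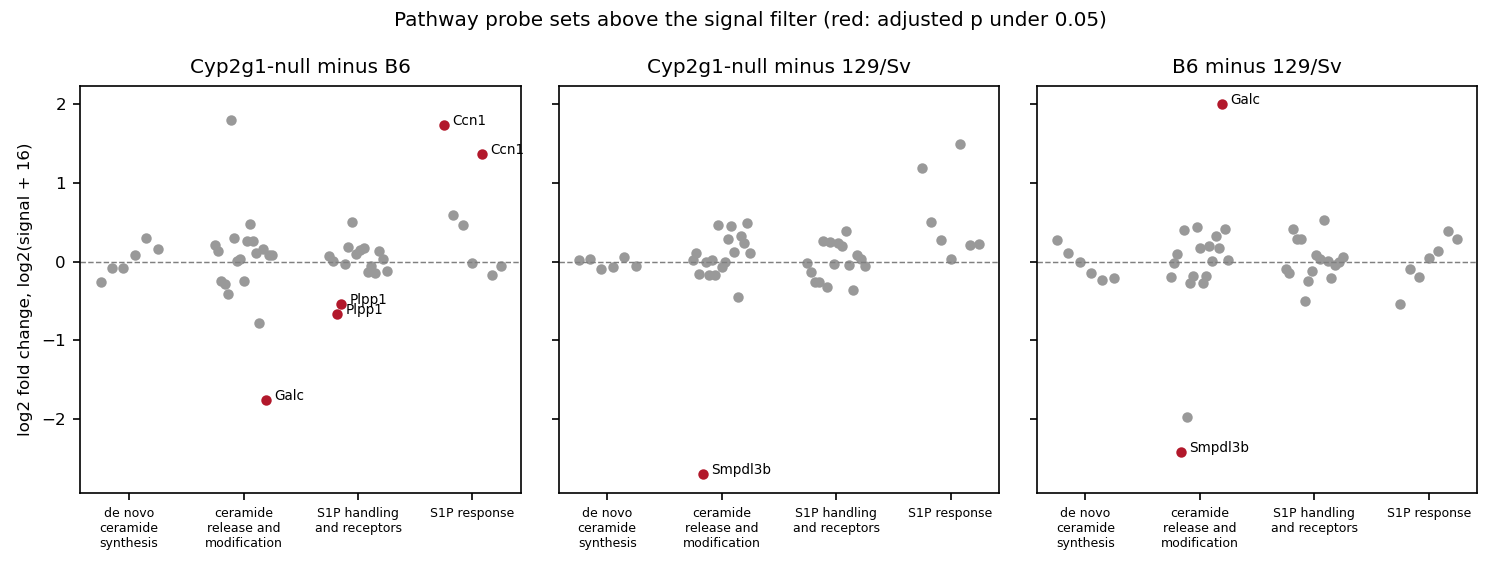
Log2 fold change on the log2(signal + 16) scale of each tested probe set of the 4 pathway lists in the 3 comparisons; red points passed a limma adjusted p of 0.05. Plpp1 (-0.66 and -0.54), Galc (-1.76) and Ccn1 (1.73 and 1.36) passed for null against B6, Smpdl3b (-2.7) for null against 129/Sv, and Galc (1.99) and Smpdl3b (-2.41) for B6 against 129/Sv.

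Summed signals of cell markers were set beside Sphk1. The ciliated and immediate early sums were highest on null arrays, as was the brighter Sphk1 probe set. Their B6 and 129/Sv arrays overlapped, whereas for that probe set all B6 arrays lay above 129/Sv. Gland secretory markers, 11 of 15 listed genes measured, summed to 529811 to 665288 on null, 375247 to 536103 on B6 and 383252 to 430868 on 129/Sv arrays. Of 11 tested probe sets, 3 (of Car6 and Klk1) were higher and 1 (Lcn3) lower in null than in B6 glands, beside 1.11% and 1.07% of all tested probe sets. Klk1 1455977_x_at did not pass, with 4980.1 to 5732.6 on null and 4724.6 to 6991.9 on B6 arrays. Against 129/Sv, 3 (Scgb1b2, Scgb1b27 and Scgb2b27) were higher in null glands, beside 1.41% of all. Ciliated cell markers, 7 of 11 listed genes measured and all 7 tested, had summed signals of 19690 to 20754 on null, 12367 to 15394 on B6 and 13700 to 16061 on 129/Sv arrays; 4 of the 7 (Dnah5, Lrrc23, Rsph1 and Tppp3) passed as higher against B6 and 0 against 129/Sv, beside 1.11% and 1.41% of all tested probe sets. Immediate early genes, 20 probe sets of 15 genes tested, summed to 62580, 113005 and 58846 on null arrays, 42554 to 55539 on B6 arrays and 50055 to 57417 on 129/Sv arrays; 4 probe sets of Ccn1, Dusp1 and Jun passed as higher against B6 and 3 of Btg2 and Jun against 129/Sv, beside the same 1.11% and 1.41%. Null array 2 led this list, while null array 1 led Sphk1. Leukocyte markers summed to 36637 to 43426 on null, 29878 to 34200 on B6 and 35784 to 42319 on 129/Sv arrays, and most of each sum was Lyz2, a lysozyme (mean 34115 in null, 24201 in B6 and 32398 in 129/Sv glands). Of the 7 tested leukocyte probe sets, 1 (Lyz2) passed limma as higher in null than in B6 glands, beside 1.11% of all tested probe sets. Against 129/Sv 0 of the 7 passed. Lyz2 was also called lower in B6 than in 129/Sv glands, beside 2.27% of all. Against B6, 2 of the 7 leukocyte probe sets had a positive log2 fold change, with a median of -0.27. Stromal markers summed to 73686 to 88536 on null, 87648 to 110390 on B6 and 73932 to 78735 on 129/Sv arrays. Of 12 tested stromal probe sets, 3 (of Col1a1, Col1a2 and Col3a1) were lower in null than in B6 glands, beside 1.07% of all. Against 129/Sv 0 passed. Probe sets of the same 3 genes were higher in B6 than in 129/Sv glands (3 of 12, beside 2.92% of all). In both comparisons each gene also had a tested probe set that did not pass. Olfactory neuron markers summed to 2423 to 8114 on null, 2984 to 12398 on B6 and 1818 to 3226 on 129/Sv arrays. Of 5 tested olfactory probe sets, 0 passed in either null comparison. For B6 against 129/Sv 1 (Adcy3) was higher, beside 2.92% of all tested probe sets. No marker was at 0 on any array, and the part of these cell types in the Sphk1 level was not tested.

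**Figure D5:**
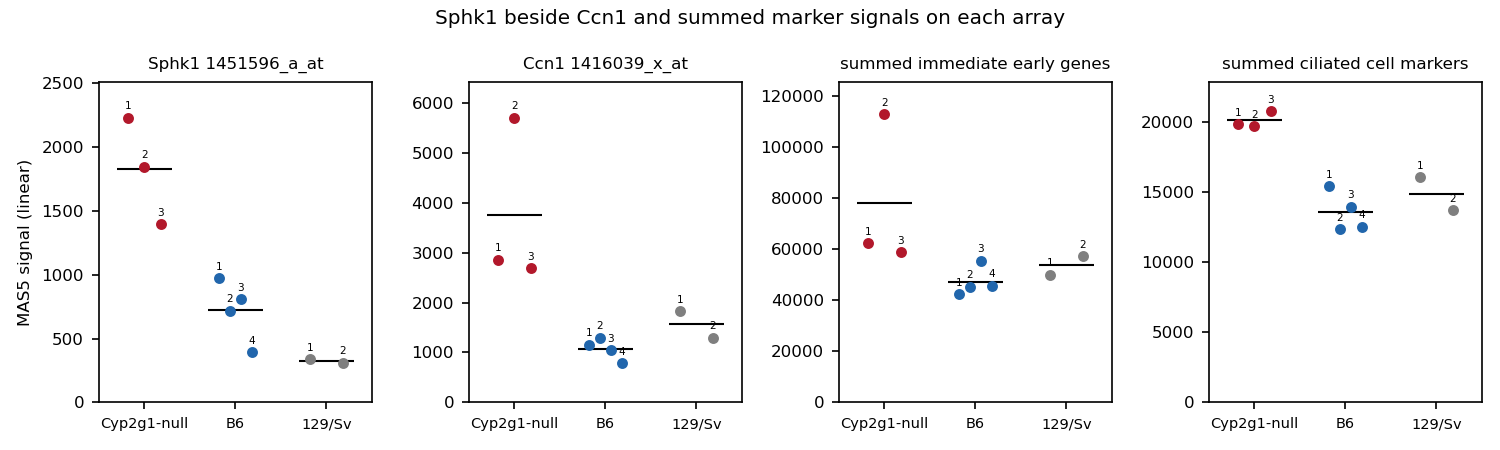
MAS5 signal (linear axis from 0) of Sphk1 1451596_a_at and Ccn1 1416039_x_at and the summed signals of immediate early genes and ciliated cell markers on 3 Cyp2g1-null, 4 B6 and 2 129/Sv arrays; points are arrays labelled by replicate number and bars are group means. Null array 1 is highest for Sphk1 (2230.1), null array 2 for Ccn1 (5702.6) and the immediate early sum (113005), and all 3 null arrays lie between 19690 and 20754 for the ciliated sum.

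Of 11589 tested probe sets with 1 symbol, those whose log2 signal was most like Sphk1 1451596_a_at over the 9 arrays were Lrrc1 (Pearson r = 0.966), Abca1, the cholesterol exporter (0.965), Mal2 (0.944), Isg20 (0.939) and Drc3 (0.937). Abca1 averaged 3272 ± 343 in the 3 null, 2315 ± 388 in the 4 B6 and 1933 ± 54.9 in the 2 129/Sv pools (mean ± SD). The most opposed were Galnt1 (-0.985), Atp6v0b (-0.956), Arhgap9 (-0.939), Txnl1 (-0.931) and Thtpa (-0.929). Among the members, r with Sphk1 was 0.752 for Asah1 and 0.707 for the second Sphk1 probe set, and lowest, at -0.598, for Sgpp1 1420821_at. These correlations describe 9 arrays that share the 3 group levels.

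Of the 5 nearest tested genes on each side of Sphk1 on chromosome 11, 1 of 10 passed in each comparison, and it was BC018473 each time; over all tested probe sets 2.18% passed for null against B6, 2.04% for null against 129/Sv and 5.19% for B6 against 129/Sv. BC018473, named after its values were seen, had 667.4, 842.2 and 717.8 on null arrays, 29, 56.8, 33.2 and 34.2 on B6 arrays and 4671.3 and 14887.7 on 129/Sv arrays (1427451_a_at). The null arrays lay between the strains, with log2 fold changes of 3.82 against B6 (limma adjusted p = 0.000153) and -3.47 against 129/Sv (adjusted p = 0.000819). A second BC018473 probe set, 1427453_at, lay below the signal filter and all groups overlapped. It had 15.1 to 81.6 on null, 28.5 to 55.2 on B6 and 30.9 and 29.8 on 129/Sv arrays. Among the other 9 neighbours the log2 fold changes ran from -0.69 to 1.61 against B6 and from -1.04 to 0.22 against 129/Sv.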

How the data were processed

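RNA from pooled glands was hybridised to Affymetrix mouse arrays, 1 pool of 10 mice an array. The authors deposited MAS5 signal intensity values, per the submitters' processing notes; no source used here gives the version of MAS5. From the values, each array had been scaled to 1 level (mean 1500.6 after trimming 2% at each end), and the array medians were 518.5 to 550. Correlations between arrays were 0.925 to 0.942, and no pair of arrays held identical values. Of 22690 probe sets, 64 controls were left out, leaving 22626; the platform annotation gave 20380 of them a single gene symbol, 691 several and 1555 none.

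Signals were tested as log2(signal + 16) with limma 3.58.1 in R 4.3.3 (lmFit, eBayes with trend), all 3 groups sharing 1 estimate of the spread. The 12575 probe sets above their array's median on at least 2 arrays were tested, with Benjamini-Hochberg adjustment over all of them and a threshold of 0.05. Detection calls were not used. On simulated data with 12575 probe sets, the fit found 71% of probe sets set to change 2-fold and 96% of those set to change 4-fold for null against B6, and 58% and 91% for null against 129/Sv. Precision is limited by the number of arrays.

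The members and lists were chosen with earlier results of these data known. The text names every member probe set, every pathway probe set that passed (where none did, the 2 of highest mean signal), and the 5 probe sets most and 5 least like Sphk1. Outside that rule and after their values were seen it names the other Galc probe sets, the dim Plpp1 probe set and Ccn2. Lats2, Klf2, Amotl2, Spns2, S1pr3, S1pr4, S1pr5 and BC018473 were also named in this way. Promoter windows and chromosomes are from RefSeq (GRCm38.p6). The alternatives changed the scaling, pseudocount, filter, variance model, threshold, samples and replicate block.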

Additional observations from a re-analysis of the deposited data

Results flagged for a closer look

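Among 24 sets of 4 B6 signals examined, 2 held an array set apart from the other 3 by most of the range; chance gives about 1 in 20. Sgpp1 1420822_s_at had 2875.2 on B6 array 2, with the other B6 arrays between 2720.8 and 2739.9. Sphk2 1426230_at had 587.2 on B6 array 4, with the other B6 arrays between 389 and 405; null array 3 (591.9) and 129/Sv array 2 (591.3) were at a like level for this probe set.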

How the results depend on the processing

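Across 21 alternatives, 795 of 798 member values outside Sphk1 stayed on their side of the threshold, 3 newly passed and 0 were lost; 47 values that had not passed changed sign. For null against B6, 0 of 13 member probe sets passed under every alternative. No pairing by replicate number was seen: 0 of 7 same-numbered pairs correlated above 0.1 after removal of group means (r = -0.075 to 0.096). This cannot settle whether arrays were paired, since removing the means makes the 2 129/Sv arrays exact opposites. With the replicate block, 1 member probe set, Asah1, passed for null against 129/Sv (0.49, limma adjusted p = 0.0449) and 1, Asah1 again, for B6 against 129/Sv (0.58, adjusted p = 0.0112). B6 array 4 is the only array numbered 4, so it added nothing to the comparisons with the block. The fits with the block and without B6 array 4 are therefore not separate checks. With that block Plpp1 1422620_s_at missed the threshold for null against B6 (adjusted p = 0.0886) and Ccn1 1416039_x_at passed it for null against 129/Sv (adjusted p = 0.0255). Leaving out 1 array at a time gave 0 to 0 members for null against 129/Sv and 0 to 1 for B6 against 129/Sv (Asah1 without B6 array 4). The Sphk1 1451596_a_at log2 fold change ran from 1.10 (replicate block, or without B6 array 4) to 1.64 (without B6 pools 1 and 2) for null against B6, from 2.25 to 2.59 for null against 129/Sv, and from 0.77 to 1.40 for B6 against 129/Sv. The count of all probe sets called for null against B6 was 274, and 154 with eBayes without trend, 490 with array weights, 129 at an adjusted p under 0.01, 542 without B6 pools 1 and 2, and 153 (without null array 3) to 598 (without B6 array 1) leaving out 1 array; it was 164 and 165 without null arrays 1 and 2. For null against 129/Sv the count was 256, and 166 without trend, 125 at 0.01, 412 without B6 pools 1 and 2, and 128 (without 129/Sv array 2) to 326 leaving out 1 array; it was 145 and 151 without null arrays 1 and 3. For B6 against 129/Sv it was 653, and 345 at 0.01 and 342 (without either 129/Sv array) to 866 leaving out 1 array. Where 1 129/Sv array was left out, the other was assumed to vary like the other groups. The cause of these shifts was not tested beyond the fewer arrays or stricter threshold by which they were made. Alternatives for pathway probe sets were chosen after seeing the data. The filter at the 75th percentile gave no value for probe sets it left out. MAS5 signals near background limit what the dim probe sets of Sphk1, S1pr1 and Sptlc1 can show.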
